A study of Homo sapiens with 4 samples.

Results

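The 10 genes described here are the expressed antiproliferative BTG and TOB genes (BTG1, BTG2, BTG3, TOB1 and TOB2) and 5 subunits of the CCR4-NOT complex (the scaffold CNOT1 and the deadenylases CNOT6, CNOT6L, CNOT7 and CNOT8), out of 58037 genes listed and 14231 tested. They were picked by symbol with the authors' fold changes known, so the fold changes and adjusted p-values below describe them and were not used as support for the choice. All 10 had enough reads to be tested. By the authors' test BTG2 was called higher in the DROSHA knockdown cells, a call that limma with a trend (adjusted p = 0.0945), Bonferroni adjustment and a threshold of 0.01 did not give. The other 9 genes did not pass the authors' test, and CNOT1, CNOT6L and CNOT8 had nearly the same mean in both groups.

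The cells were K562, a human erythroleukaemia line, at passages 25 to 30. Control cells carried a non-specific CRISPR lentivirus and knockdown cells one against DROSHA, and both groups were selected with puromycin at 2.5 ng/µl. Total RNA from whole-cell lysates was sequenced from 2 control and 2 knockdown libraries made with a stranded total RNA kit, which leaves mature microRNAs out. The labels do not say whether the cells were single clones or pools, nor whether each replicate was its own culture. The p-values therefore reflect how far these libraries differ, and that may be technical. In bulk RNA, a change in the make-up of the culture and a change in RNA per cell cannot be told apart.

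The CCR4-NOT complex removes the poly(A) tail of mRNAs, the step that usually opens their decay. CNOT1 is its scaffold. CNOT7 and CNOT8 are one pair of nucleases (the Caf1 type) and CNOT6 and CNOT6L the other (the Ccr4 type), and within each pair the subunits are alternatives for the same place in the complex. BTG and TOB proteins bind the Caf1-type nucleases through a shared domain and bring them to poly(A)-bound mRNA, and TNRC6 proteins bring the complex to mRNAs bound by microRNAs. BTG1 and BTG2 are known for restraining proliferation, in blood cells among others.

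The values come from 1 table, deposited by the authors, in which single libraries have no column. The whole reads behind each mean were recovered from its digits for 99.7% of the 13618 tested genes with a mean under 10000 normalised reads (reads divided by a library's size factor). The recovered reads summed to 26463217 and 19984660 in control libraries A and B and to 22651868 and 17534252 in knockdown libraries A and B. The letters only order the libraries by depth and are not the replicate numbers of the labels. DROSHA, the nuclease that crops primary microRNA transcripts, had 6107 and 6077 normalised reads in the control libraries and 2734 and 2770 in the knockdown libraries. Its log2 fold change in the authors' deposited table was -1.15 (adjusted p = 8.1e-14). The table does not state the direction of its fold changes, and every direction here rests on reading that value as a loss in the knockdown. In K562, all 15 erythroid and K562 marker genes were tested, with means from 762 to 156201 normalised reads 0 called in the authors' deposited table and 0 with an unadjusted p under 0.05. They ran from NFE2 at -0.23 and TFRC at -0.19 to ALAS2 at 0.15 and GATA1 at 0.25 in the authors' deposited table.

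Of the 14231 tested genes, 0.351% had an adjusted p under 0.05 in the authors' deposited table. Calls to the higher side made up 0.33% and calls to the lower side 0.0211%. Among the 10 genes here, 1 was called, and since that contrast was in view when they were picked, nothing is read from the share. The median log2 fold change was 0.14 over the 10 genes and -0.03 over all tested genes in the authors' deposited table, and 8 of the 10 lay above 0, against 45.1% of all tested genes. Of these 8, CNOT8 (0.003), CNOT1 (0.007) and CNOT6L (0.015) lay close to 0, and their sign turned when single libraries were left out.

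**Figure D1:**
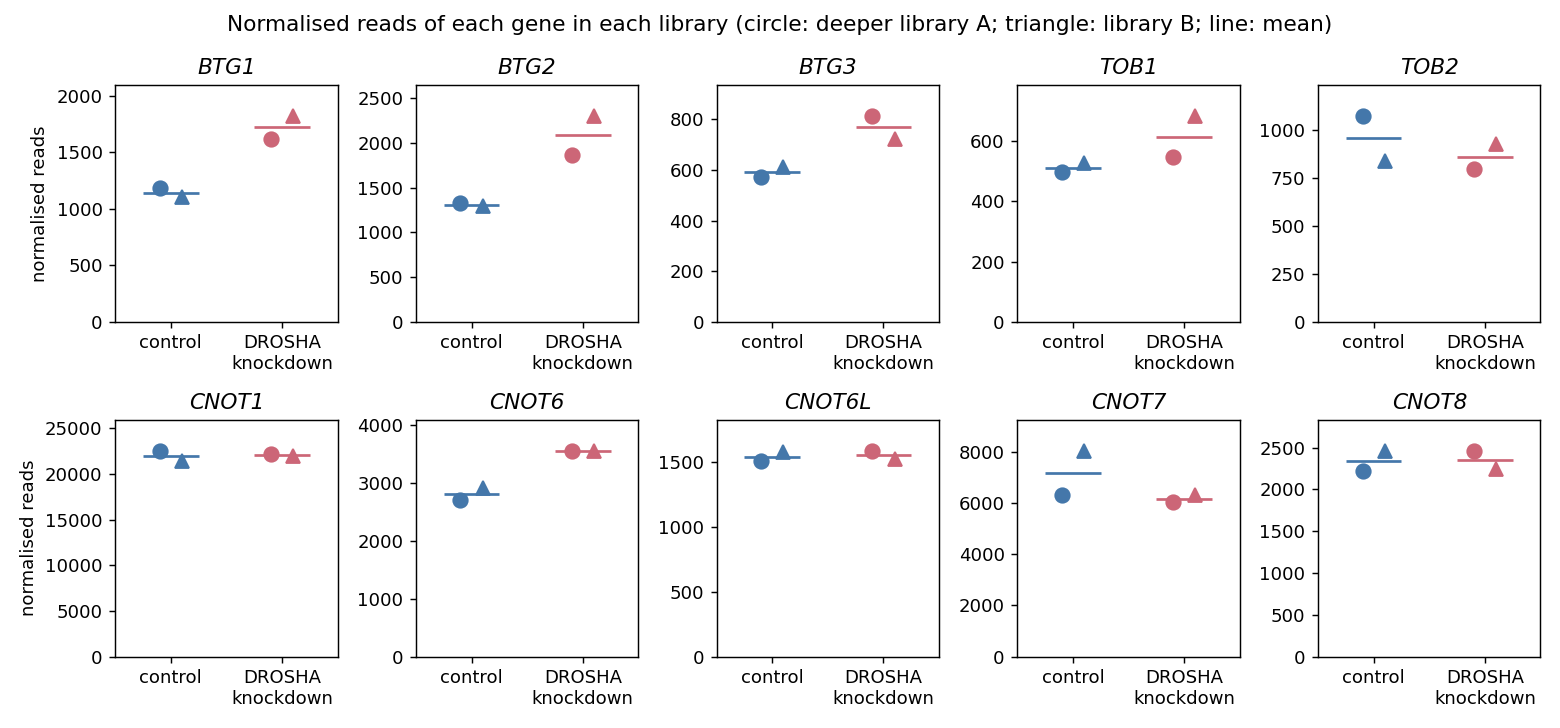
Normalised reads (vertical axes, each starting at 0) of the 10 genes in the 2 control (blue) and 2 DROSHA knockdown (red) libraries, with the group mean as a line. Both knockdown libraries lie above both control libraries for BTG1, BTG2, BTG3, TOB1 and CNOT6, and below both for CNOT7.

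BTG2, a small early-response protein that joins the Caf1-type nucleases to mRNA, lies at chr1:203305491-203309602 on the plus strand (hg38). It had 1327 and 1292 normalised reads in control libraries A and B and 1864 and 2300 in knockdown libraries A and B. Both knockdown libraries were above both controls, and the controls lay closer together than the knockdown libraries. Its log2 fold change was 0.67 (adjusted p = 0.0162) per the authors' deposited table, a 1.59-fold higher level. Fitted to the recovered reads, the standard error was 0.163 and the 95% interval ran from 0.35 to 0.99. With knockdown library B left out the log2 ratio was 0.51, and with knockdown library A left out it was 0.81. BTG2 held rank 38 of the 50 called genes.

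BTG1, the closest relative of BTG2, lies at chr12:92140278-92145897 on the minus strand. Its levels were 1180 and 1106 normalised reads in the control libraries and 1618 and 1823 in the knockdown libraries. The groups did not overlap here either, and knockdown library B was again the highest. The log2 fold change was 0.59 (adjusted p = 0.0552) per the authors' deposited table, so BTG1 was the first gene outside the 0.05 threshold, at rank 51. Its standard error from the recovered reads was 0.158 and the 95% interval 0.28 to 0.90. BTG1 stood on the called side when fold changes were re-centred on the median of all tested genes (adjusted p = 0.0269), since that median lay slightly below 0. The long non-coding LINC01619 overlaps BTG1 on the same strand over 2637 bases, and it was listed at a mean of 57.9 normalised reads per the authors' deposited table, against 1432 for BTG1.

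BTG3, a further BTG protein that also binds the Caf1-type nucleases, lies at chr21:17593653-17612947 on the minus strand. It had 574 and 611 normalised reads in the control libraries and 814 and 723 in the knockdown libraries. Knockdown values were above the control values without overlap, with library A the higher one this time. A log2 fold change of 0.38 (adjusted p = 0.647) was listed in the authors' deposited table. The 95% interval from the recovered reads was 0.02 to 0.73, close to 0 at its lower end, and BTG3 was not called after adjustment over all genes.

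TOB1 and TOB2 are the longer members of the family, whose tails bind poly(A)-binding protein. TOB1, at chr17:50862223-50867978 on the minus strand, had 496 and 527 normalised reads in the control libraries and 546 and 684 in the knockdown libraries. TOB2, at chr22:41433492-41447023 on the minus strand, had 1073 and 840 in the control libraries and 795 and 927 in the knockdown libraries. The TOB1 groups did not overlap by a narrow margin, and the TOB2 groups did. TOB1 was listed at 0.26 (adjusted p = 0.868) per the authors' deposited table, with a 95% interval from the recovered reads of -0.12 to 0.65. Without knockdown library B the TOB1 log2 ratio was 0.09. TOB2 was listed at -0.15 (adjusted p = 0.943) per the authors' deposited table, with an interval of -0.52 to 0.21. The processed pseudogene TOB2P1, whose sequence derives from TOB2, had a mean of 142 normalised reads per the authors' deposited table, and reads shared between the copies cannot be told apart. The last family member, BTG4, was listed at 0.

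Summed over BTG1, BTG2, BTG3, TOB1 and TOB2, the libraries held 4650 and 4376 normalised reads in the controls and 5638 and 6457 in the knockdown. Most of the added reads were those of BTG1 and BTG2. Scaled to the length of the principal transcript, BTG2 had 483 normalised reads per kilobase in the control and 768 in the knockdown mean, and BTG1 had 244 and 368. BTG2 thus stood at 1.98 times BTG1 per kilobase in the controls and 2.09 times in the knockdown libraries. Before scaling, the control means were closer, at 1310 normalised reads for BTG2 and 1143 for BTG1. All values per kilobase rest on 1 annotated length per gene (2712 bases for BTG2, 4680 for BTG1). Which transcript forms the cells used was not measured. The per-kilobase means over all libraries were 467 for BTG3, 253 for TOB1 and 199 for TOB2. The level of BTG3 was thus between those of BTG2 and BTG1, while TOB1 and TOB2 were the lowest of the family.

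Among the nuclease partners, neither gene of the Caf1-type pair was called. CNOT7 had 6305 and 8046 normalised reads in the control libraries and 6029 and 6295 in the knockdown libraries. The knockdown values lay just under the lower control, and control library B stood far above the other libraries. CNOT7 was listed at -0.22 (adjusted p = 0.852) per the authors' deposited table, and without control library B the log2 ratio was -0.03. CNOT8, at chr5:154857553-154876793 on the plus strand, had 2224 and 2464 in the control libraries and 2454 and 2240 in the knockdown libraries. These groups overlapped fully, with an adjusted p of 0.999 listed by the authors' deposited table, and the 95% interval of the log2 fold change from the recovered reads was -0.29 to 0.30. Per kilobase of the annotated transcript, CNOT7 stood at 1.20 times CNOT8 in the control mean and 1.03 times in the knockdown mean. Before scaling, the control means were 7176 normalised reads for CNOT7 and 2344 for CNOT8.

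The Ccr4-type pair differed in its values. CNOT6, at chr5:180494412-180578405 on the plus strand, had 2705 and 2902 normalised reads in the control libraries and 3551 and 3537 in the knockdown libraries. The groups did not overlap, and the knockdown libraries were nearly equal. CNOT6 was listed at 0.34 (adjusted p = 0.528) per the authors' deposited table, with a standard error of 0.140 and a 95% interval of 0.06 to 0.61 from the recovered reads. CNOT6L, at chr4:77713387-77819615 on the minus strand, had 1501 and 1572 in the control libraries and 1584 and 1520 in the knockdown libraries. Its groups overlapped, with a 95% interval of -0.28 to 0.31 from the recovered reads. Per kilobase, CNOT6 stood at 2.57 times CNOT6L in the control mean and 3.21 times in the knockdown mean. The difference between CNOT6 and CNOT6L in fold change was not tested.

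The scaffold CNOT1, at chr16:58519951-58629886 on the minus strand, was the most abundant of the 10 genes, both in reads and per kilobase (2600 normalised reads per kilobase of transcript). Its mean of 22026 normalised reads is too high for a unique recovery. The search was limited to combinations of whole reads with similar levels in both libraries of a group. Of the 94 found that gave this mean, 32 also gave its fold change. Of these, 1 had a spread between libraries within 2-fold of that of other well-covered genes. That combination, a likely rather than a certain one, puts CNOT1 at 22549 and 21395 in the control libraries and 22198 and 21960 in the knockdown libraries. The knockdown values lie between the control values. CNOT1 was listed at 0.01 (adjusted p = 0.999) per the authors' deposited table. SETD6 overlaps one end of CNOT1 on the opposite strand, as VPS37A does for CNOT7 and FAXDC2 for CNOT8, and the strand setting of the counts is not given in the sources used here.

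The 4 nucleases together held 12735 and 14985 normalised reads in the control libraries and 13617 and 13591 in the knockdown libraries. The knockdown sums lay within the range of the controls. Over all genes with recovered reads, both knockdown libraries were above both controls for 18.9% and below both for 22.5%. Of the 10 genes here, 5 were above, 1 was below and 4 overlapped. The 5 above were BTG1, BTG2, BTG3, TOB1 and CNOT6. Since the contrast was in view when the genes were picked, nothing is read from these counts.

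**Figure D2:**
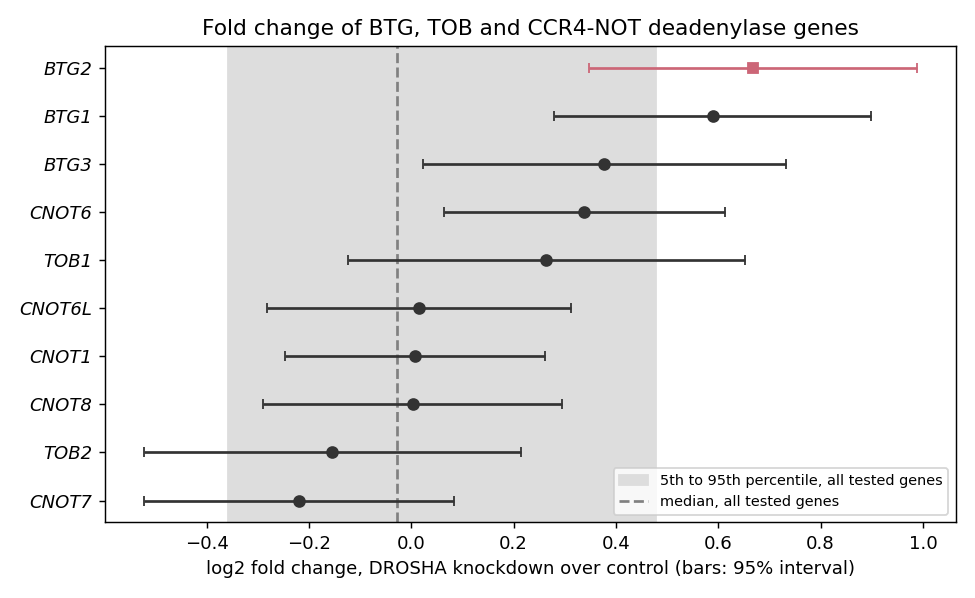
Log2 fold change of each gene (horizontal axis, knockdown over control, from the authors' table) with 95% intervals fitted to recovered reads; the red square is BTG2, whose adjusted p is under 0.05. The grey band is the 5th to 95th percentile of all tested genes (-0.36 to 0.48), and only BTG2 and BTG1 have their value beyond it. The CNOT1 interval rests on a combination of reads chosen by its spread.

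The sign of the difference held for BTG1, BTG2, BTG3, TOB1, CNOT6 and CNOT7 whichever single library was left out, and it turned for TOB2, CNOT1, CNOT6L and CNOT8. The BTG1 log2 ratio ran from 0.50 to 0.67 over these omissions, that of BTG3 from 0.29 to 0.46 and that of CNOT6 from 0.29 to 0.39. TOB2 ran from -0.32 to 0.04 and CNOT8 from -0.07 to 0.08. A limma fit with a trend on the recovered reads gave BTG2 a log2 fold change of 0.66 with an adjusted p of 0.0945, so BTG2 was not called by that test. That fit held 9 of the 10 genes, CNOT1 being left out. It called 0 of the 9, against 0.214% of 13576 genes (28 higher and 1 lower). An unadjusted p under 0.05 was found for 4 of the 9 and for 9.72% of all genes in that fit. Without knockdown library A it called BTG2 (adjusted p = 0.0025) and BTG1 (adjusted p = 0.0356), but the remaining knockdown library is then assumed to vary as the 2 controls do, and calls over all genes went from 28 to 124 higher.

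**Figure D3:**
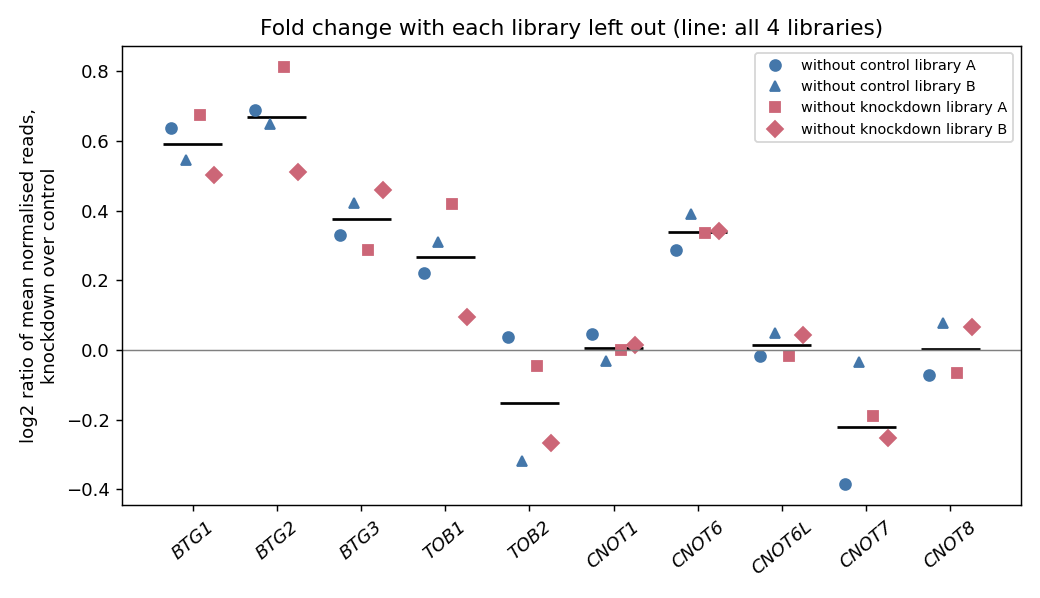
Log2 ratio of the mean normalised reads, knockdown over control (vertical axis), for each gene with 1 of the 4 libraries left out (symbols) and with all 4 (lines). The BTG2 symbols span 0.51 to 0.81 and stay above 0, while those of TOB2 span -0.32 to 0.04.

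The 3′ UTRs of the 10 genes were searched for matches to the seeds (bases 2 to 8) of 13 mature microRNAs. These were 12 whose 9 host rows were all called higher, with log2 fold changes from 0.76 (DLEU2) to 3.52 (MIR193BHG) and adjusted p of at most 0.0197 in the authors' deposited table, together with miR-21-5p, reported as a regulator of BTG2. The microRNAs were chosen with the fold changes known, and none was itself measured in these libraries. The mature sequences of miR-92a-3p, miR-19b-3p, miR-16-5p and miR-24-3p are each also encoded at another locus (MIR92A2, MIR19B2, MIR16-2 and MIR24-1). For these, the host values do not cover every source. A match is a stretch of letters and was not tested as a site. The pattern below was noticed among 13 searches. All 13 seeds differ. The mature miR-92a-3p, whose host transcript MIR17HG had 2320 and 2554 normalised reads in the control libraries and 8772 and 5760 in the knockdown libraries, is shown from RefSeq (GRCh38.p14) with its seed in capitals, because its match occurs in BTG1, BTG2, TOB1 and TOB2.
miR-92a-3p: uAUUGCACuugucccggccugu

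The matching stretches, from GENCODE 29 transcripts on hg38, have the letters complementary to that seed in capitals (GTGCAAT). In each the next base is an a, which makes it an 8mer match (GTGCAATA).
BTG2, first match, chr1:203308485-203308510, plus strand: ttctcagtcactGTGCAATatgcccc
BTG2, second match, chr1:203308796-203308821, plus strand: tgtcgtagacttGTGCAATatatact
BTG1, chr12:92141284-92141309, minus strand: ctttatccttatGTGCAATatttcta
TOB1, chr17:50862322-50862347, minus strand: tgtacctatattGTGCAATacttgaa
TOB2, chr22:41433617-41433642, minus strand: attcagaatgttGTGCAATattttgg

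The matches start 1059 and 1370 bases after the stop codon in BTG2, 2783 in BTG1, 645 in TOB1 and 2681 in TOB2. BTG3, with a 3′ UTR of 440 bases, held no such match, nor did any of the 5 CCR4-NOT genes, although the 3′ UTR of CNOT6L is 7044 bases long. Of the 3′ UTRs of 11194 tested coding genes, 3.06% held the miR-92a-3p 8mer and 0.107% held it more than once, BTG2 among them. Among 3′ UTRs within 20% of the member's own length, 7.26% held it for BTG1, 4.33% for BTG2, 1.69% for TOB1 and 5.71% for TOB2. Of those within 20% of the length of BTG2, 0.216% held it more than once.

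Over the 343 genes with that 8mer, the median log2 fold change was 0.02 and 54.8% lay above 0 in the authors' deposited table, with 2 called higher and 0 lower. These 343 include BTG1, BTG2, TOB1 and TOB2 themselves, and BTG2 is 1 of the 2 called. Over all 11194 genes the median was -0.04 and 42.0% lay above 0, with 32 called higher and 3 lower in the authors' deposited table. Among the 8mers of all 13 microRNAs, the share above 0 ran from 39.6% to 56.4% and the median from -0.06 to 0.03, and for 11 of the 13 the share was above that of all 3′ UTRs. From the same host, miR-19b-3p gave 56.4% and miR-17-5p 48.7%, while miR-22-3p and let-7b-5p, whose hosts were also called higher, gave 39.6% each. Genes that carry a match also share 3′ UTR length and base composition, and the part of these in the values was not tested.

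BTG2 had 7 matches to 5 of the 13 microRNAs in its 3′ UTR of 2164 bases, or 3.23 per kilobase. All 3′ UTRs searched held 1.30 per kilobase, and CNOT1, which was not called, held 2.98. The other matches of BTG2 are shown because they lie on the called gene, in order from the stop codon and with the seed match in capitals. The last overlaps the flank of the second miR-92a-3p match.
miR-27a-3p on BTG2, chr1:203307787-203307812: gcaaggttagcaACTGTGAacagaga
miR-16-5p on BTG2, chr1:203308181-203308206: ttgctttgctagTGCTGCTttgtgtg
miR-16-5p on BTG2, chr1:203308312-203308337: tgaaagtcttgaTGCTGCTgccatga
miR-29a-3p on BTG2, chr1:203308728-203308753: gttttttctcccTGGTGCTcagagca
miR-144-3p on BTG2, chr1:203308805-203308830: cttgtgcaatatATACTGTtgtgggt

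BTG1 held 4 matches in 3802 bases, or 1.05 per kilobase, so it was not rich in matches for its length. They were to miR-19b-3p, miR-22-3p, miR-21-5p and miR-92a-3p. BTG3 held 1 match, to miR-17-5p, and TOB1 held only that to miR-92a-3p. BTG2 held no miR-21-5p seed match in the transcript searched. Among the CCR4-NOT genes CNOT6 held 9 matches (2.14 per kilobase), CNOT6L 9 (1.28), CNOT7 7 (1.22), CNOT1 3 (2.98) and CNOT8 2 (1.48). CNOT1, listed at a log2 fold change of 0.01, was thus nearly as rich in matches for its length as BTG2. BTG3 stood at 2.27 per kilobase.

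**Figure D4:**
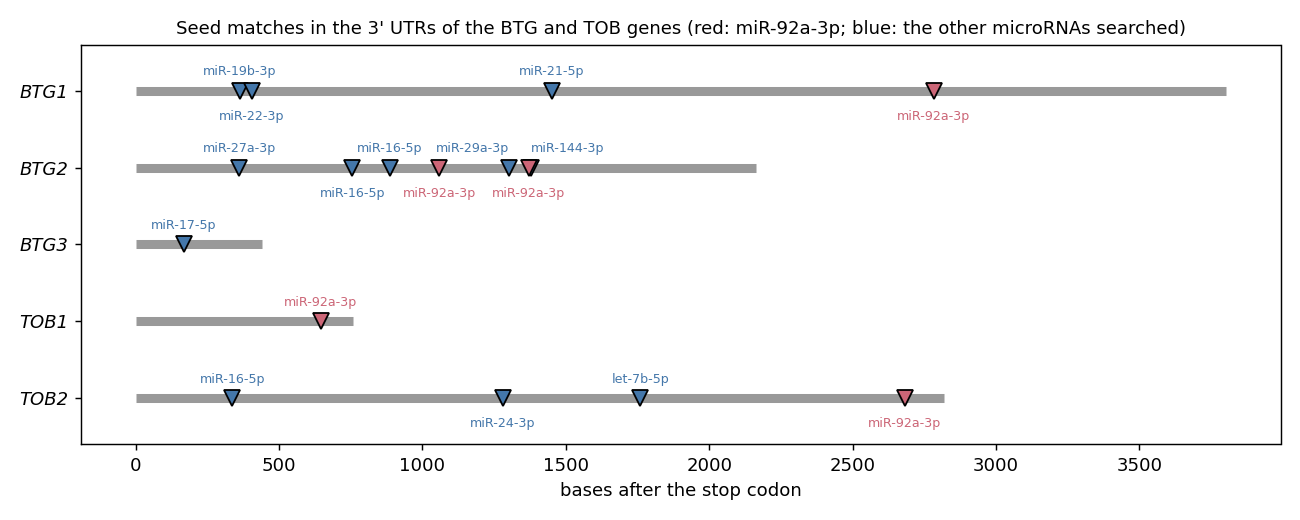
Positions of seed matches (triangles; red for miR-92a-3p, blue for the other microRNAs) along the 3′ UTRs of the BTG and TOB genes (grey bars), in bases after the stop codon. BTG2 carries 7 matches and 2 of the 5 red ones, the second nearly on top of the miR-144-3p match, and BTG3 carries a single blue one.

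In the RefSeq promoter windows (250 bases before to 50 after the start, GRCh38.p14), 8 of the 10 genes had an entry. On either strand, the letters CCAAT occurred once in BTG1, once in BTG2 and once in CNOT6, and in 34.6% of 35116 promoters. GGGCGG occurred once in BTG1, 2 times in TOB2 and 3 times each in BTG2, BTG3, CNOT6 and CNOT6L, and in 45.0% of promoters. TATAAA occurred in BTG1 only, among the genes with an entry, against 11.5% of promoters. The p53 half-site was searched only as the exact pattern RRRCWWGYYY (R is A or G, W is A or T, Y is C or T). That pattern had no match in any of the 8 genes with an entry, and it occurred in 6.6% of promoters. Half-sites with a mismatch or another core were not searched, so a p53 element in these windows is not excluded. BTG2 is a known target of p53, which K562 cells lack in functional form. A part of p53 in the BTG2 value was not tested.

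Genes that work with the 10 described here were read from lists in the authors' deposited table. Of the 7 other CCR4-NOT subunits, 0 were called in either direction and the median log2 fold change was -0.03 in the authors' deposited table. Their values ran from -0.23 for CNOT11 and -0.22 for CNOT2 to 0.14 for CNOT3 and for TNKS1BP1. Of 8 other deadenylases, 0 were called (median -0.02), from NOCT at -0.29 and ANGEL1 at -0.22 to PAN2 at 0.06 and its partner PAN3 at 0.25 in the authors' deposited table. In both lists 0 genes had an unadjusted p under 0.05, by the authors' test refitted to the recovered reads and by limma. Over all tested genes the refitted test gave an unadjusted p under 0.05 for 7.09%, the share beside which such counts below stand.

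Proteins that bring CCR4-NOT to mRNA gave 0 calls among 17 tested (median 0.03 in the authors' deposited table). The highest was TNRC6A, the Argonaute partner that also recruits CCR4-NOT, with 3557 and 3127 normalised reads in the control libraries and 4402 and 5076 in the knockdown libraries. It was listed at 0.50 (adjusted p = 0.135) per the authors' deposited table, so its libraries did not overlap but it was not called. By the refitted test 2 genes of this list, TNRC6A and CPEB4, had an unadjusted p under 0.05. SAMD4B, an RNA-binding repressor, and NANOS1 were at the other end at -0.23 each, and CPEB3 stood at 0.34, in the authors' deposited table.

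Poly(A)-binding proteins and their partners, which TOB1 and TOB2 contact, gave 0 calls among 7 tested (median 0.01 in the authors' deposited table). PAIP2, an inhibitor of poly(A)-binding protein, had 2619 and 2828 normalised reads in the control libraries and 3274 and 4036 in the knockdown libraries. PAIP2 was listed at 0.42 (adjusted p = 0.375), PABPC1L at 0.56 (adjusted p = 0.413) PAIP1 at -0.19 and the main protein PABPC1 at -0.09 in the authors' deposited table. PAIP2 and PABPC1L were the 2 genes of this list with an unadjusted p under 0.05 by the refitted test. Of 19 decapping and 5′ decay genes, which act after the tail is removed, 0 were called (median -0.08), from DCP1B at -0.32 and LSM6 at -0.28 to EIF4ENIF1 at 0.33 and EDC3 at 0.47 (adjusted p = 0.523) per the authors' deposited table. EDC3 was the 1 gene of that list with an unadjusted p under 0.05.

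Genes tied to BTG and TOB proteins by binding or as reported downstream genes gave 0 calls among 9 tested, with a median of -0.18 in the authors' deposited table. By the refitted test 2 of the 9, CCNE1 and PRMT1, had an unadjusted p under 0.05. The lowest was CCNE1, cyclin E1, with 1476 and 1510 normalised reads in the control libraries and 1085 and 1056 in the knockdown libraries. CCNE1 was listed at -0.48 (adjusted p = 0.196) and PRMT1, the arginine methyltransferase that binds BTG1 and BTG2, at -0.29 (adjusted p = 0.605) per the authors' deposited table. Both knockdown libraries lay below both controls for 5 of the 8 genes of this list with recovered reads, against 22.5% of all genes, and the highest were E2F1 at 0.00 and CCND2, cyclin D2, at 0.17 in the authors' deposited table.

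BTG2 is also counted among p53 targets and among immediate early genes. Of 20 other p53 targets tested, 0 were called (median 0.04), with CDKN1A at -0.02 and MDM2 at -0.10 in the authors' deposited table. FDXR (-0.34) and CCNG1 (-0.31) had an unadjusted p under 0.05 by the refitted test, and TNFRSF10B at 0.27 and GADD45A at 0.29 were the highest in the authors' deposited table. Of 17 immediate early genes tested, BTG2 and KLF6 were called higher and 0 were called lower (median 0.07) per the authors' deposited table. KLF6, a zinc finger factor, had 708 and 611 normalised reads in the control libraries and 1060 and 1161 in the knockdown libraries, and was listed at 0.75 (adjusted p = 0.00774) per the authors' deposited table. MYC stood at -0.25, JUNB at -0.22 and the thinly covered NR4A1 at 0.65 (adjusted p = 0.890) per the authors' deposited table. Both knockdown libraries lay above both controls for 5 of the 16 genes of this list with recovered reads (18.9% of all genes) and below both for 0 (22.5% of all genes), BTG2 and KLF6 among the former, and only these 2 of the list had an unadjusted p under 0.05 by the refitted test.

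**Figure D5:**
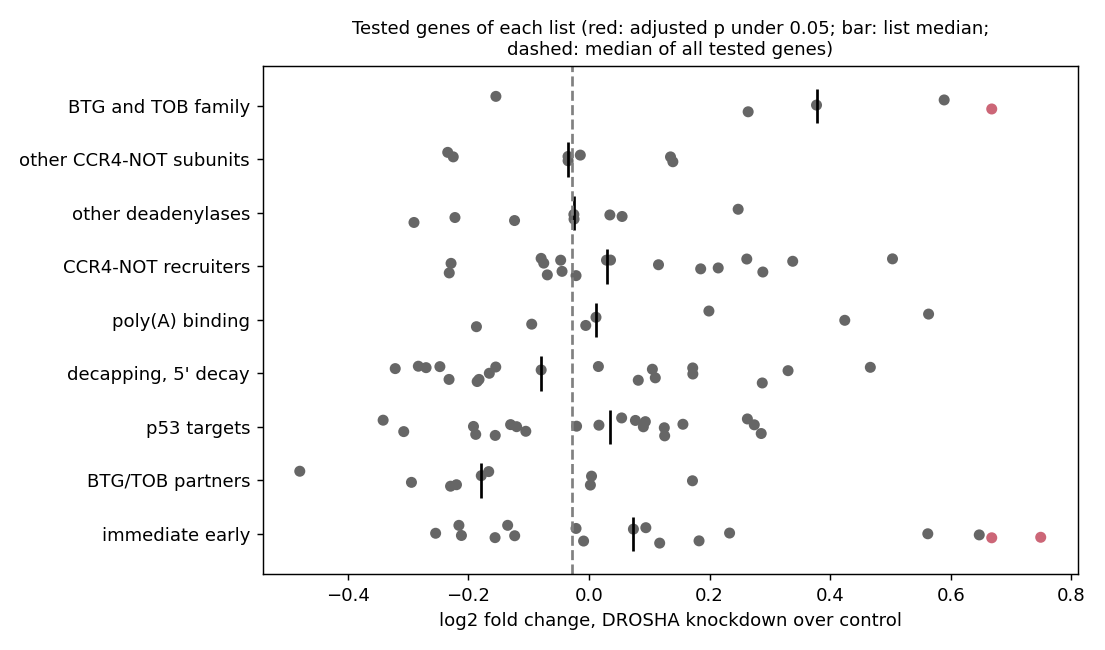
Log2 fold change (horizontal axis, knockdown over control) of each tested gene of 9 lists, with the list median as a bar and the median of all tested genes (-0.03) as a dashed line. BTG2, drawn in the first and last list, and KLF6 at 0.75 are the only called genes (red), and list medians other than that of the BTG and TOB family (0.38) stay between -0.18 and 0.07. The family was picked with these fold changes in view, so nothing is read from its higher median.

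Markers of other cell types were compared as well. Of 16 such markers 9 were tested and 0 were called, the B-cell marker MS4A1 was at 0, and the median was -0.21 in the authors' deposited table. Both knockdown libraries lay below both controls for 4 of the 9 (22.5% of all genes) and above both for 0 (18.9%). Their summed level was 31960 and 31307 normalised reads in the control libraries and 23745 and 29023 in the knockdown libraries. VIM and KRT19 had an unadjusted p under 0.05. VIM, vimentin, was the lowest at -0.54 (adjusted p = 0.162), followed by COL1A2 at -0.45, and EPCAM at 0.06 and PECAM1 at 0.10 were the highest, per the authors' deposited table. K562 itself is known to express some of these genes, and their part in the values of BTG1 and BTG2 was not tested.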

How the data were processed

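The submitters' processing notes name DESeq2 1.24.0, the aligners STAR 2.6.0a and Bowtie2 2.3.4.1, and the build hg38. How genes were counted, on which strand and with which annotation is not given in the sources used here. The authors deposited, per the file header, for each gene a normalised read signal averaged over 4 libraries, an adjusted p-value and a log2 fold change. A further deposited log2 value of unstated assay was not used. The members, lists and microRNAs were chosen with earlier results of these data known.

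The table has 0 columns for single libraries. Size factors (1.23 and 0.918 for the control, 1.09 and 0.813 for the knockdown libraries) came from the steps of 1 read in low means, given to 15 significant digits. Whole reads per library were accepted when only 1 combination gave the mean and, in a negative binomial fit, the deposited fold change within 2e-04. Except for low means, the search began with combinations in which both libraries of a group lay within a set fold of each other. It widened only if none of these fitted, so a match is unique only within the window searched. Closeness of the libraries of a group was thus partly presumed. The search recovered 13576 genes. Standard errors are from that fit. For 616 genes whose raw p could be read back from the deposited adjusted p, the median ratio of the fitted to the implied standard error was 1.00. Since every recovered read is inferred, values per library rest on the authors' size factors and fold changes. Counts of calls use the authors' adjusted p at 0.05.

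Added after the data were seen, limma 3.58.1 (R 4.3.3) with a trend was run on log2(normalised reads + 1) of the recovered reads. The unadjusted p-values given for lists are Wald p-values from the negative binomial fit; where reads were not recovered (CCND2 and PABPC1 among them) the implied upper limit was used. The recovery and the limma fit were tested on simulated data. For the recovery these data held only genes of lower mean, and CNOT1, CNOT6 and CNOT7 lay above the simulated range. Alternatives covered thresholds, Bonferroni, gene filters, centring and omitted libraries. The planned count test (edgeR) was not run, since no deposited column holds counts. Named beside the 10 genes were, for each list, any called gene and the 2 highest and 2 lowest tested genes; CDKN1A, MDM2, CPEB4, KRT19 and the microRNA hosts were named after their values were seen. Python 3.11.15 with numpy 2.4.6, pandas 2.3.3 and scipy 1.17.1 was used. Transcripts and coordinates came from GENCODE 29 (hg38), with 1 principal transcript per gene.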

Additional observations from a re-analysis of the deposited data

How the results depend on the processing

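Of the 10 genes, 1 (BTG2) was called at an adjusted p under 0.05, and also when coding genes alone were adjusted or a log2 fold change of 0.5 was required. At 0.01 and with Bonferroni 0 were called, and limma with a trend called 0. At 0.1, and among genes with a mean of at least 100 adjusted again, 2 were called (BTG1 and BTG2). Leaving out each library in turn in limma gave 0 to 2. Over all genes, 47 were called higher and 3 lower. Bonferroni gave 26 higher and 1 lower, limma 28 higher and 1 lower, and a threshold of 0.1 gave 7 lower. Limma gave 12 higher and 1 lower without control library A, 9 and 1 without control library B, 124 and 11 without knockdown library A, and 141 and 72 without knockdown library B. The cause of these shifts was not tested. Re-centring on the median of well-covered coding genes (-0.06) put BTG1 at 0.65 (adjusted p = 0.0122) and changed no other call among the 10 genes. No paired analysis was possible because the recovered libraries carry no replicate numbers. The edgeR fit, planned only if counts per library were given, was not run, nor were DESeq2 or voom fits. With 2 libraries against 2, an exact permutation test of 1 gene cannot go below 0.333. Standard errors of 0.140 for CNOT6 and 0.198 for TOB1, with the adjustment over all genes, leave changes of the size listed for them undecided. The standard error of CNOT1 (0.129) follows in part from the spread by which its reads were chosen.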
